A study of Mus musculus with 9 samples.

Results

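Selenoproteins are enzymes and carriers that hold selenocysteine, and the genes described here are those of the mouse selenoproteins together with the genes that make and insert selenocysteine, 32 in all. They were chosen by name from the annotation of the array, with earlier results of these data known. Of the 32, 24 encode a selenocysteine and 8 encode only factors of the machinery, while Sephs2, a selenophosphate synthetase that is itself a selenoprotein, was grouped with the machinery, which then held 9 genes. Each gene was represented by 1 probe set, the one with the highest mean over the 9 arrays among those naming that gene alone. This gave values for 31 of the 32 genes, out of 22180 genes measured in the same way. Selenoo, a mitochondrial pseudokinase, was present only in a probe set shared with Tubgcp6 and has no value here.

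Selenocysteine is encoded by UGA, a codon that otherwise stops translation. A stem-loop in the untranslated end of selenoprotein mRNAs, the SECIS element, is bound by Secisbp2, and the elongation factor Eefsec then brings the selenocysteine tRNA to the ribosome. That tRNA is first charged with serine, which Pstk phosphorylates and Sepsecs converts to selenocysteine with the selenophosphate made by Sephs2. In rodents, the mRNAs of some selenoproteins, with Gpx1, Selenow, Selenoh and Msrb1 among them, are known to fall when selenium is scarce, while others such as Gpx4 are kept. The enzymes of the family reduce hydrogen peroxide, lipid peroxides, thioredoxin or oxidized methionine, or act on thyroid hormone.

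RNA was measured on Affymetrix Mouse Gene 2.0 ST arrays in embryoid bodies (EBs), aggregates in which C57BL/6 mouse embryonic stem cells (ESCs) begin to differentiate once pluripotency factors are withdrawn. EBs had formed in hanging drops by day 3 and were then exposed over 24 h to AgNPs (20 nm, citrate-coated) at 5.0 µg/ml, to Ag+ from silver acetate at 5.0 µg/ml, or to no silver as the control. Each group had 3 biological replicates with 1 array each, all from a single ESC line, so the spread is that between cultures of this line. Signals are RMA values on the log2 scale, on which a difference of 1 is a doubling.

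The median of the 25341 named probe sets was 5.032 to 5.076 over the 9 arrays, and arrays correlated at 0.9939 to 0.9961 within groups and at 0.9913 to 0.9956 between groups. The mean signal of 6 pluripotency genes was 6.09 to 6.76 on AgNP arrays, 5.82 to 6.21 on Ag+ arrays and 5.80 to 6.47 on control arrays, and that of 4 primitive streak genes was 7.26 to 7.36, 6.76 to 7.14 and 7.24 to 7.54 in the same order of groups. RMA values have no true zero. The mean signal of the 3 liver genes looked at, which day 4 EBs should hardly express, was 3.15 to 3.37 over the arrays. That of 3 skeletal muscle genes was 5.11 to 5.39, so no single level marks absent RNA. Gpx3 on Ag+ arrays (5.27 to 5.53) and Selenop on control arrays (5.14 to 5.68) lay near the muscle level. The visceral endoderm genes moved with Ag+. Their mean signal over 7 genes was 6.02 to 6.21 on AgNP arrays, 5.05 to 5.16 on Ag+ arrays and 6.15 to 6.23 on control arrays, and 4 of the 7 (Cubn, Apob, Ttr and Amn) were called lower with Ag+ than in controls and higher with AgNPs than with Ag+, while 0 were called between AgNP and control EBs (1 at an unadjusted p under 0.05). The primitive streak gene Eomes was also called lower with Ag+ (adjusted p = 0.0475), and at an unadjusted p under 0.05 this list had 2 of 4 genes with Ag+ and 3 of 4 between the exposures. The arrays of all 4 did not overlap between the exposures, as for 12.3% of the named probe sets. Of the 4, Mesp1 went the other way, at 0.20 for Ag+ minus control and -0.19 for AgNP minus Ag+. Of the pluripotency, early blood, neural, liver and skeletal muscle markers, 0 were called in limma. At an unadjusted p under 0.05, 1 of 6 pluripotency genes passed with Ag+ and 1 between the exposures, as did 2 of 5 early blood genes between the exposures. Among all named probe sets, 0.0868% were called with AgNPs, 2.28% with Ag+ and 0.509% between the exposures. Those at an unadjusted p under 0.05 were 8.44%, 13.8% and 8.31%. The part of the visceral endoderm and primitive streak shifts in the selenoprotein values with Ag+ was not tested. In EBs, which mix cell types, fewer cells of a type cannot be told apart from less RNA per cell.

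Silver exposure was followed by lower mRNA signals of a few selenoproteins. Of the 9 machinery genes 0 was called in any comparison. With at most 2.28% of the named probe sets called in a comparison, 0 of 9 does not set them apart. Gpx1, the cytosolic glutathione peroxidase, and Selenow, a small thioredoxin-like protein abundant in muscle, fell with AgNPs and with Ag+. Selenoh, a nuclear redox protein, and Gpx3, the secreted glutathione peroxidase of plasma, fell with Ag+. Selenop, the secreted carrier of selenium, rose with Ag+. Here a gene is called where its p in limma, adjusted by the Benjamini-Hochberg method across the 25341 named probe sets, was under 0.05.

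Between AgNP and control EBs, 2 of the 31 genes were called, both lower, where 0.0868% of the named probe sets were called in either direction, 0.0513% lower and 0.0355% higher. Between Ag+ and control EBs, 5 of 31 were called, 4 lower and 1 higher, where 2.28% of the named probe sets were called, 1.47% lower and 0.813% higher. AgNP EBs differed from Ag+ EBs in 3 of the 31 genes, 2 higher with AgNPs and 1 lower, where 0.509% of the named probe sets were called, 0.363% higher and 0.146% lower. The median difference over the 31 genes was -0.02 with AgNPs against control, -0.02 with Ag+ against control and 0.02 with AgNPs against Ag+, compared with -0.01, 0.00 and 0.00 over all named probe sets. At an unadjusted p under 0.05 the 3 comparisons gave 5, 9 and 4 of the 31 genes, against 8.44%, 13.8% and 8.31% of the named probe sets. With a fold change of at least 1.5 asked for as well, they gave 1, 4 and 1 of 31, against 0.454%, 1.67% and 0.758%. Of the 31 genes, 26 had a mean signal of at least 5 and held every call, so 2, 5 and 3 of 26 were called, against 0.155%, 3.98% and 0.93% of the probe sets with such signals. Because the list was made with earlier results of these data known, these shares and those below describe it and do not test it.

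**Figure D1:**
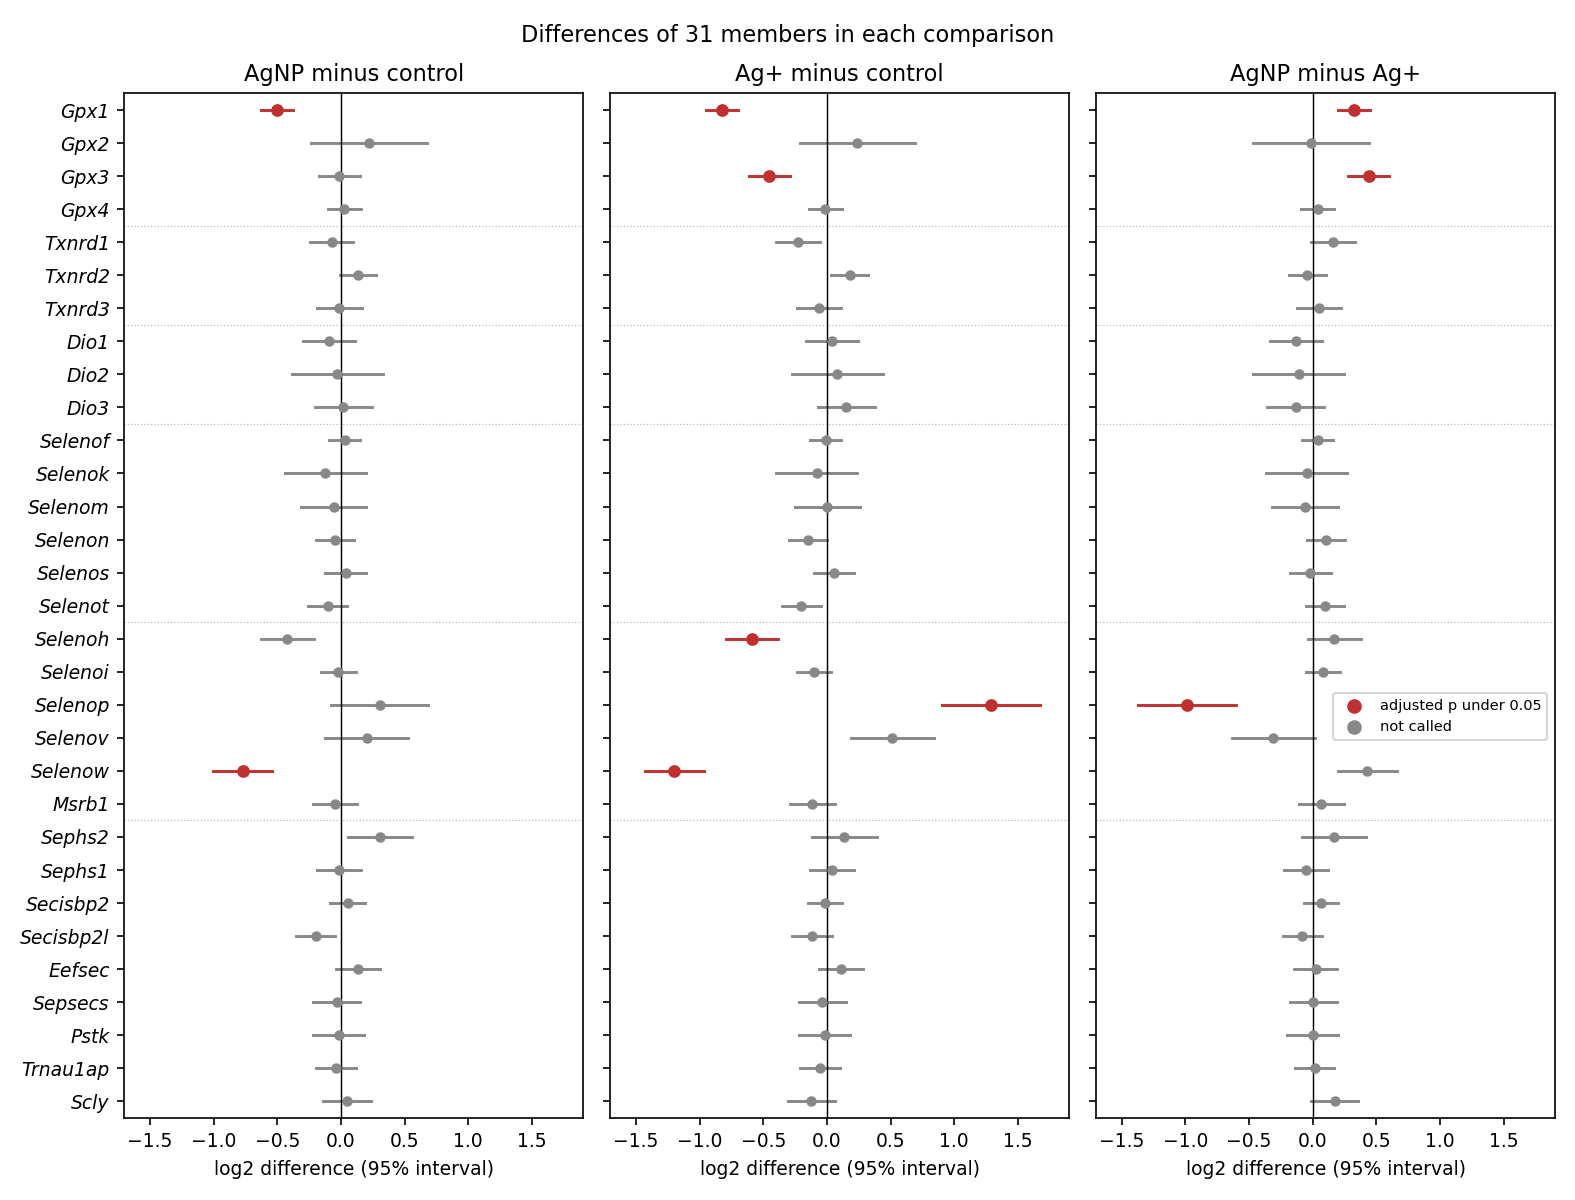
Log2 differences of the 31 measured genes (points) with 95% intervals (lines) in limma, with AgNP minus control on the left, Ag+ minus control in the middle and AgNP minus Ag+ on the right. Red marks an adjusted p under 0.05; dotted lines part glutathione peroxidases, thioredoxin reductases, deiodinases, endoplasmic reticulum selenoproteins, other selenoproteins and the machinery. The differences past the threshold lie among the glutathione peroxidases and the other selenoproteins, with Selenop at 1.29 and Selenow at -1.20 at the ends of the Ag+ panel.

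The glutathione peroxidases use glutathione to reduce peroxides. Gpx1 had signals of 8.84, 8.84 and 8.90 on AgNP arrays, 8.56, 8.48 and 8.57 on Ag+ arrays, and 9.31, 9.37 and 9.40 on control arrays. The 3 groups did not overlap, with Ag+ lowest and control highest. Gpx1 was lower with AgNPs by a difference of -0.50 (SE 0.0562, 1.41-fold lower, adjusted p = 0.0238) and with Ag+ by a difference of -0.82 (SE 0.0562, 1.77-fold lower, adjusted p = 0.000211). AgNP minus Ag+ was 0.32 (SE 0.0562, adjusted p = 0.0493).

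Gpx3, by contrast, was called with Ag+ and not with AgNPs. Its signals were 5.88, 5.83 and 5.85 with AgNPs, 5.27, 5.53 and 5.44 with Ag+, and 5.83, 5.86 and 5.91 in controls, so that AgNP and control arrays overlapped and every Ag+ array lay under both. Ag+ minus control was -0.45 (SE 0.0714, 1.37-fold lower, adjusted p = 0.0113), AgNP minus control was -0.01 (95% interval -0.17 to 0.15, adjusted p = 0.968), and AgNP minus Ag+ was 0.44 (SE 0.0714, adjusted p = 0.0389).

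The remaining glutathione peroxidases were not called. Gpx4, the enzyme that reduces phospholipid hydroperoxides, averaged 7.34 ± 0.056 with AgNPs, 7.30 ± 0.060 with Ag+ and 7.31 in controls (SD, n = 3 each), the control SD being 0 since the 3 control values were identical. Its 95% intervals were -0.10 to 0.16 for AgNP minus control and -0.14 to 0.12 for Ag+ minus control. Gpx2, known from the gut epithelium, had a mean signal under the 25th percentile of named probe sets (3.719), at 2.49 ± 0.16 with AgNPs, 2.51 ± 0.41 with Ag+ and 2.27 ± 0.27 in controls (SD, n = 3 each). Its 95% intervals were correspondingly wide, at -0.23 to 0.68 for AgNP minus control and -0.21 to 0.69 for Ag+ minus control.

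Selenow changed most among the 31 genes with AgNPs. It had signals of 7.45, 7.37 and 7.34 on AgNP arrays, 6.85, 6.90 and 7.13 on Ag+ arrays, and 8.27, 8.24 and 7.96 on control arrays. Again the groups did not overlap and ran from Ag+ through AgNP to control. AgNP minus control was -0.77 (SE 0.103, 1.71-fold lower, adjusted p = 0.0399) and Ag+ minus control was -1.20 (SE 0.103, 2.29-fold lower, adjusted p = 0.000509), whereas AgNP minus Ag+, at 0.43 (SE 0.103), was not called (unadjusted p = 0.00227, adjusted p = 0.173).

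Selenoh had signals of 7.27, 7.26 and 7.19 with AgNPs, 7.09, 7.11 and 7.01 with Ag+, and 7.85, 7.66 and 7.46 in controls. The same order was seen with no overlap, and the control arrays were spread more widely (SD 0.19) than the AgNP (SD 0.045) or Ag+ arrays (SD 0.053). Ag+ minus control was -0.59 (SE 0.0919, 1.5-fold lower, adjusted p = 0.0109). AgNP minus control was -0.42 (SE 0.0919, unadjusted p = 0.00123) and missed the threshold (adjusted p = 0.234), as did AgNP minus Ag+ at 0.17 (adjusted p = 0.703).

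Selenop went the other way. Its signals were 5.54, 5.74 and 5.92 on AgNP arrays, 6.44, 6.73 and 6.98 on Ag+ arrays, and 5.14, 5.47 and 5.68 on control arrays. Every Ag+ array lay above the other 6, while AgNP and control arrays overlapped. Ag+ minus control was 1.29 (SE 0.17, 2.45-fold higher, adjusted p = 0.00457) and AgNP minus Ag+ was -0.99 (SE 0.17, 1.98-fold lower, adjusted p = 0.0486). AgNP minus control was 0.30 (95% interval -0.08 to 0.69, adjusted p = 0.654).

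Selenov, a testis selenoprotein related to Selenow, read 5.04, 5.24 and 5.25 with AgNPs, 5.61, 5.44 and 5.42 with Ag+, and 5.07, 5.24 and 4.61 in controls. The Ag+ arrays lay above all others, and 1 control array lay far under the other 2. Ag+ minus control was 0.52 (SE 0.145, unadjusted p = 0.00588) but was not called (adjusted p = 0.133). Msrb1, which reduces methionine-R-sulfoxide, and Selenoi, which makes phosphatidylethanolamine, were not called either, with 95% intervals of -0.29 to 0.06 and -0.24 to 0.03 for Ag+ minus control.

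**Figure D2:**
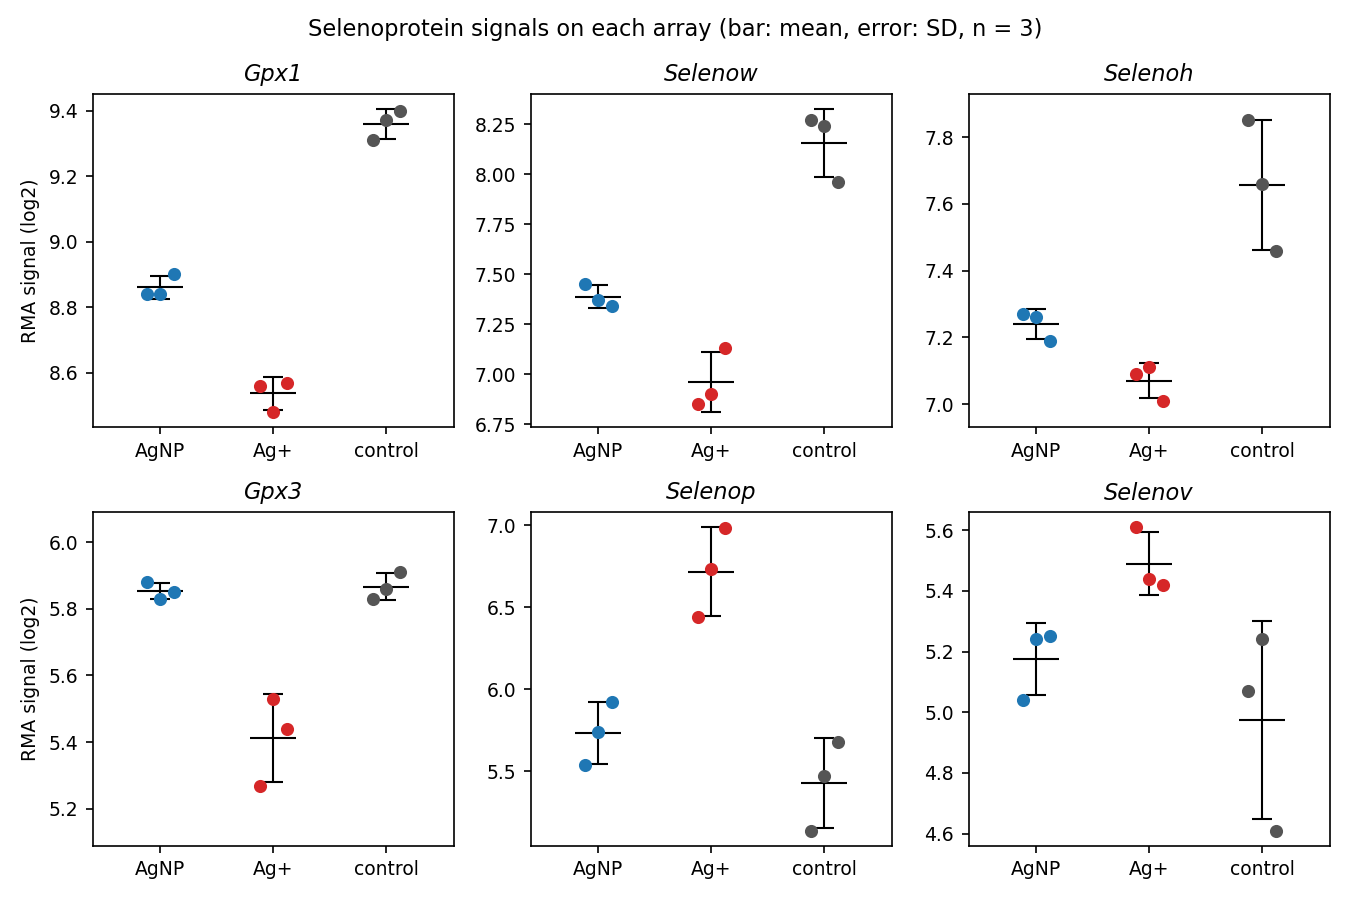
RMA signal (log2) of Gpx1, Selenow, Selenoh, Gpx3, Selenop and Selenov on each array (points) of the AgNP, Ag+ and control groups, with the mean (bar) and SD (error bar, n = 3); each panel has its own axis, which does not start at 0. Gpx1, Selenow and Selenoh fall into 3 separate levels with Ag+ lowest, while for Gpx3 and Selenop only the Ag+ arrays stand apart, at 5.27 to 5.53 and at 6.44 to 6.98.

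Gpx1, Selenow and Selenoh were the 3 of 31 genes (9.68%) with every Ag+ array under every AgNP array and every AgNP array under every control array, an order seen in 0.967% of the named probe sets. The opposite order, with Ag+ highest and control lowest, was seen in 0 of the 31 and in 0.403% of the named probe sets. Gpx1 and Selenow were called lower in both exposed groups (6.45% of 31, against 0.0513% of the named probe sets). Both comparisons use the same 3 control arrays, so a control array that read high would lower both differences. Leaving aside calls, 5, 11 and 8 of the 31 genes had groups that did not overlap in AgNP against control, Ag+ against control and AgNP against Ag+, where 10.9%, 16.5% and 12.3% of the named probe sets did so. By direction these were 4 lower and 1 higher with AgNPs than in controls (6.09% and 4.84% of named probe sets), 8 lower and 3 higher with Ag+ than in controls (9.51% and 6.99%), and 2 lower and 6 higher with AgNPs than with Ag+ (5.61% and 6.72%).

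The genes in this order are 3 of the 4 listed here as sensitive to selenium supply in rodents, a list drawn up with results of these data known and therefore only a description. The median difference of the 4 was -0.46 with AgNPs and -0.71 with Ag+, while that of the other 19 measured selenoproteins was -0.01 and 0.00. Msrb1, the fourth, had signals of 7.10, 6.98 and 7.06 with AgNPs, 6.85, 6.96 and 7.13 with Ag+, and 7.06, 7.13 and 7.09 in controls, which overlapped. Its differences from control were -0.05 with AgNPs and -0.12 with Ag+.

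Promoters of the 5 called genes are shown because 4 of them fell together with Ag+ and 1 rose. Each run holds the 250 bases before the annotated start, on the gene's own strand, from RefSeq (GRCm38.p6). Capitals mark letters that match, on either strand, a TGA-GC pattern (TGA, then 5 open bases, then GC) or a metal response element (TGCNCNC, bound by MTF1). The TGA-GC pattern is spaced more widely than the antioxidant response element core bound by NRF2. Matches to that core were therefore not searched. Gpx1 lies at chr9:108338830-108339079 (plus strand), Selenow at chr7:15922372-15922621 (minus strand), Selenoh at chr2:84670709-84670958 (minus strand), Gpx3 at chr11:54902604-54902853 (plus strand) and Selenop, the first of its 3 annotated starts, at chr15:3270517-3270766 (plus strand).
Gpx1: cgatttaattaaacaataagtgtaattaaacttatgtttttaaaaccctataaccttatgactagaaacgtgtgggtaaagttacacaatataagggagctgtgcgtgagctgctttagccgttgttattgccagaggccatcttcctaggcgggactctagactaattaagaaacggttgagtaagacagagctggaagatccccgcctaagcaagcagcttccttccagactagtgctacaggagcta
Selenow: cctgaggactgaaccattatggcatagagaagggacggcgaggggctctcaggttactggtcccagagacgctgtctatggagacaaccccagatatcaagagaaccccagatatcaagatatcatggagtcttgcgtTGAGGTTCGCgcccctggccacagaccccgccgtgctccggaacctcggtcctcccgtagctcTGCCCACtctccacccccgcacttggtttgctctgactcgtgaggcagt
Selenoh: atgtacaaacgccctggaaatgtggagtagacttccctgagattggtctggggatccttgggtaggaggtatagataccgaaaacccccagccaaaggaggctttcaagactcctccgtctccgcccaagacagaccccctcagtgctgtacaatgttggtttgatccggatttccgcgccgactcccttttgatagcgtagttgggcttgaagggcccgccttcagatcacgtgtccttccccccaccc
Gpx3: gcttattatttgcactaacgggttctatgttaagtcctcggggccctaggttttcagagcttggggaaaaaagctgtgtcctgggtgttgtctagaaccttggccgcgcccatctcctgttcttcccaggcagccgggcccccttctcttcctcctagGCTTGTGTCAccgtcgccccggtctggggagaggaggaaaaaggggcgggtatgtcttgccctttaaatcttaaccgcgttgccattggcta
Selenop: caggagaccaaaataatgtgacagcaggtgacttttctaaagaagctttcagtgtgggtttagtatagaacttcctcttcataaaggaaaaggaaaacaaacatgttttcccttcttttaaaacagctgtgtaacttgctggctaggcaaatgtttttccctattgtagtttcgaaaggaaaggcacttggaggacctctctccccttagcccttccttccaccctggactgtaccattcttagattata
Selenow held both patterns, TGA-GC as TGAGGTTCGC at -112 to -103 and TGCNCNC as TGCCCAC at -49 to -43 from the start. The fourth base of TGCCCAC is C, so it is not the core bound by MTF1. Gpx3 held the TGA-GC pattern on the opposite strand, read here as GCTTGTGTCA at -92 to -83. The windows printed for Gpx1, Selenoh and Selenop held neither set of letters. The window of the third annotated start of Selenop, not printed, held TGCNCNC on the opposite strand at -62 to -56, with T as the fourth base. No motif searched was common to the printed windows of the genes that fell.

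Motif shares over the family were not far from those of all promoters. Promoters of 31 of the 32 genes were found, all except Sepsecs, with 39 windows. The TGA-GC pattern was in 48.7% of these windows and in 37.2% of all 32851 windows, and the TGCNCNC pattern in 51.3% and 44.4%. The inverted pairs of the heat shock element bound by HSF1, GAANNTTC and TTCNNGAA, were in 5.13% and 0% of the 39 windows, against 6.69% and 7.17% of all windows. A match is a description of letters and not of a bound site.

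Thioredoxin reductases, which keep thioredoxin reduced, had 0 calls among 3 genes in each comparison, with 0, 2 and 0 at an unadjusted p under 0.05. Txnrd1, the cytosolic enzyme and an NRF2 target, had signals of 9.42, 9.27 and 9.25 on AgNP arrays, 9.25, 9.11 and 9.11 on Ag+ arrays, and 9.44, 9.44 and 9.27 on control arrays. Its Ag+ arrays lay under the control arrays, by a narrow margin. Ag+ minus control was -0.23 (95% interval -0.40 to -0.06, unadjusted p = 0.0144, adjusted p = 0.218), and AgNP minus control was -0.07 (95% interval -0.25 to 0.10). The mitochondrial enzyme Txnrd2 leaned upwards, at 0.18 with Ag+ (adjusted p = 0.255) and 0.14 with AgNPs (adjusted p = 0.608). Txnrd3, known from the testis, stayed within -0.06 to 0.05 in the 3 comparisons.

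The deiodinases, which switch thyroid hormone on or off, had 0 calls in each comparison and 0 at an unadjusted p under 0.05. Dio1, Dio2 and Dio3 each had a mean signal under the median of named probe sets (5.058), and with Txnrd3 and Gpx2 they were the 5 of 31 genes under it. Dio3, the enzyme that inactivates thyroid hormone, read 3.96, 3.96 and 3.91 with AgNPs, 4.01, 3.89 and 4.33 with Ag+, and 3.90, 3.96 and 3.90 in controls. A single Ag+ array stood above the rest, and the groups overlapped. Its Ag+ minus control difference of 0.15 had a 95% interval of -0.07 to 0.38 (adjusted p = 0.541). Differences of the 3 deiodinases lay between -0.13 and 0.15, and a second, dimmer probe set of Dio2 was not called either.

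The 6 selenoproteins of the endoplasmic reticulum, which act in folding and protein degradation there, showed 0 calls in each comparison, with 0, 1 and 0 at an unadjusted p under 0.05. Selenot, a thioredoxin-like membrane protein, came nearest, with 8.97, 9.10 and 9.11 on AgNP arrays, 8.98, 8.88 and 9.04 on Ag+ arrays, and 9.22, 9.12 and 9.16 on control arrays. Both exposed groups lay under the controls on every array. The differences were small, at -0.11 with AgNPs (adjusted p = 0.689) and -0.20 with Ag+ (adjusted p = 0.22). Selenof, a partner of the folding sensor UGGT, averaged 9.04 ± 0.025 with AgNPs, 8.998 ± 0.038 with Ag+ and 9.01 ± 0.041 in controls (SD, n = 3 each). Selenos, a factor of endoplasmic reticulum-associated degradation, and Selenok, a cofactor of the palmitoyltransferase DHHC6, differed from control by 0.04 and -0.12 with AgNPs and by 0.06 and -0.08 with Ag+. Selenon, which muscle needs, and Selenom, a protein of the lumen, differed from control by -0.04 and -0.06 with AgNPs and by -0.15 and 0.00 with Ag+.

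The selenocysteine machinery was measured in full, and 0 of its 9 genes was called in any comparison in limma or under any alternative, with 2, 0 and 0 at an unadjusted p under 0.05. Of the named probe sets, 0.0868%, 2.28% and 0.509% were called and 8.44%, 13.8% and 8.31% had such a p. A count of 0 in 9 genes therefore does not set the machinery apart. Sephs2 read 8.23, 7.99 and 7.86 on AgNP arrays, 7.89, 7.82 and 7.86 on Ag+ arrays, and 7.84, 7.82 and 7.51 on control arrays. The AgNP arrays lay above the controls, narrowly so at 7.86 against 7.84, and the Ag+ arrays overlapped both. AgNP minus control was 0.31 (95% interval 0.05 to 0.56, unadjusted p = 0.0232, adjusted p = 0.508) and Ag+ minus control was 0.14 (95% interval -0.12 to 0.39).

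Secisbp2l, a paralog of the SECIS-binding protein, had signals of 6.44, 6.47 and 6.59 with AgNPs, 6.59, 6.56 and 6.60 with Ag+, and 6.72, 6.78 and 6.59 in controls, which overlapped both exposed groups. AgNP minus control was -0.20 (unadjusted p = 0.0173, adjusted p = 0.487). Secisbp2 itself had differences of 0.05 with AgNPs and -0.01 with Ag+, and Eefsec of 0.13 and 0.11. Pstk and Sepsecs, which complete the selenocysteine tRNA, and Trnau1ap, which binds it, lay between -0.05 and -0.02 in both comparisons with control. Scly, the lyase that recycles selenium from selenocysteine, differed from control by 0.05 with AgNPs and by -0.12 with Ag+, and Sephs1, the relative of Sephs2 without selenocysteine, by -0.01 and 0.04. Over the 9 genes the 95% intervals of the differences reached at most 0.56 and at least -0.35 for AgNP minus control, and 0.39 and -0.31 for Ag+ minus control, so shifts smaller than these are not excluded.

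Few of the genes that work beside the selenoproteins were called, and few of all named probe sets were. Of 52 listed genes 46 were measured, namely cysteine-containing homologs, thioredoxins and peroxiredoxins, glutathione synthesis, selenium uptake, selenocysteine tRNA and UGA decoding, nonsense-mediated decay and partners in the endoplasmic reticulum. With AgNPs 0 of 46 were called in limma or under any alternative, with 4 at an unadjusted p under 0.05. With Ag+ and between AgNP and Ag+ EBs 1 of 46 was called, Lrp2, with 8 and 5 at an unadjusted p under 0.05. Of the named probe sets, 0.0868%, 2.28% and 0.509% were called in the 3 comparisons, and 8.44%, 13.8% and 8.31% had such a p. Counts this small in 46 genes do not set the companion genes apart. Selenbp2, a selenium-binding protein, was also called with Ag+ when arrays were weighted, at a difference of 0.38 without weights (adjusted p = 0.119).

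Lrp2, or megalin, is an endocytic receptor that takes up selenoprotein P in the mouse kidney. Its signals were 8.36, 7.78 and 7.57 with AgNPs, 6.58, 5.74 and 5.49 with Ag+, and 8.36, 8.01 and 7.64 in controls. Every Ag+ array lay under the other 6. Ag+ minus control was -2.07 (SE 0.303, adjusted p = 0.00758) and AgNP minus Ag+ was 1.97 (SE 0.303, adjusted p = 0.0345). Lrp2 is also expressed in visceral endoderm, whose markers moved in the same groups. Lrp8, the receptor of selenoprotein P known from mouse brain and testis, read 7.83, 7.69 and 7.74 with AgNPs, 7.77, 7.71 and 7.59 with Ag+, and 7.31, 7.48 and 7.55 in controls. Both exposed groups lay above the controls, at 0.30 with AgNPs (adjusted p = 0.336) and 0.25 with Ag+ (adjusted p = 0.207).

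Among the homologs that carry cysteine in place of selenocysteine, 0 of 7 were called, and Gpx8, the one with the smallest p, differed from control by 0.05 with AgNPs and by 0.37 with Ag+ (adjusted p = 0.175). Srxn1, which restores peroxiredoxins and is an NRF2 target, differed by 0.30 with AgNPs (unadjusted p = 0.0038, adjusted p = 0.334) and by 0.19 with Ag+ (adjusted p = 0.32). Gclm, a subunit of the enzyme that limits glutathione synthesis and likewise an NRF2 target, read 7.84, 7.76 and 7.79 with AgNPs, 7.54, 7.46 and 7.42 with Ag+, and 7.50, 7.57 and 7.62 in controls. The AgNP arrays lay above all others. Its differences from control were 0.23 with AgNPs (unadjusted p = 0.00379, adjusted p = 0.334) and -0.09 with Ag+ (adjusted p = 0.554), and AgNP minus Ag+ was 0.32 (unadjusted p = 0.000434, adjusted p = 0.0724). With Txnrd1 and Gpx2, these are some of the NRF2 targets within or beside the family. None of these 4 was called as tested here, though Gclm was called between AgNP and Ag+ EBs under 4 alternatives (trended prior variance, array weights, a mean signal of at least 5, or only the probe sets of highest group mean). Smg1, a kinase of nonsense-mediated decay, the pathway that degrades selenoprotein mRNAs read as prematurely stopped, had the smallest p of its 7 measured genes with Ag+ (adjusted p = 0.258). In selenocysteine decoding it was Ncl, nucleolin (adjusted p = 0.381), and in the endoplasmic reticulum it was Derl3 (adjusted p = 0.197).

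**Figure D3:**
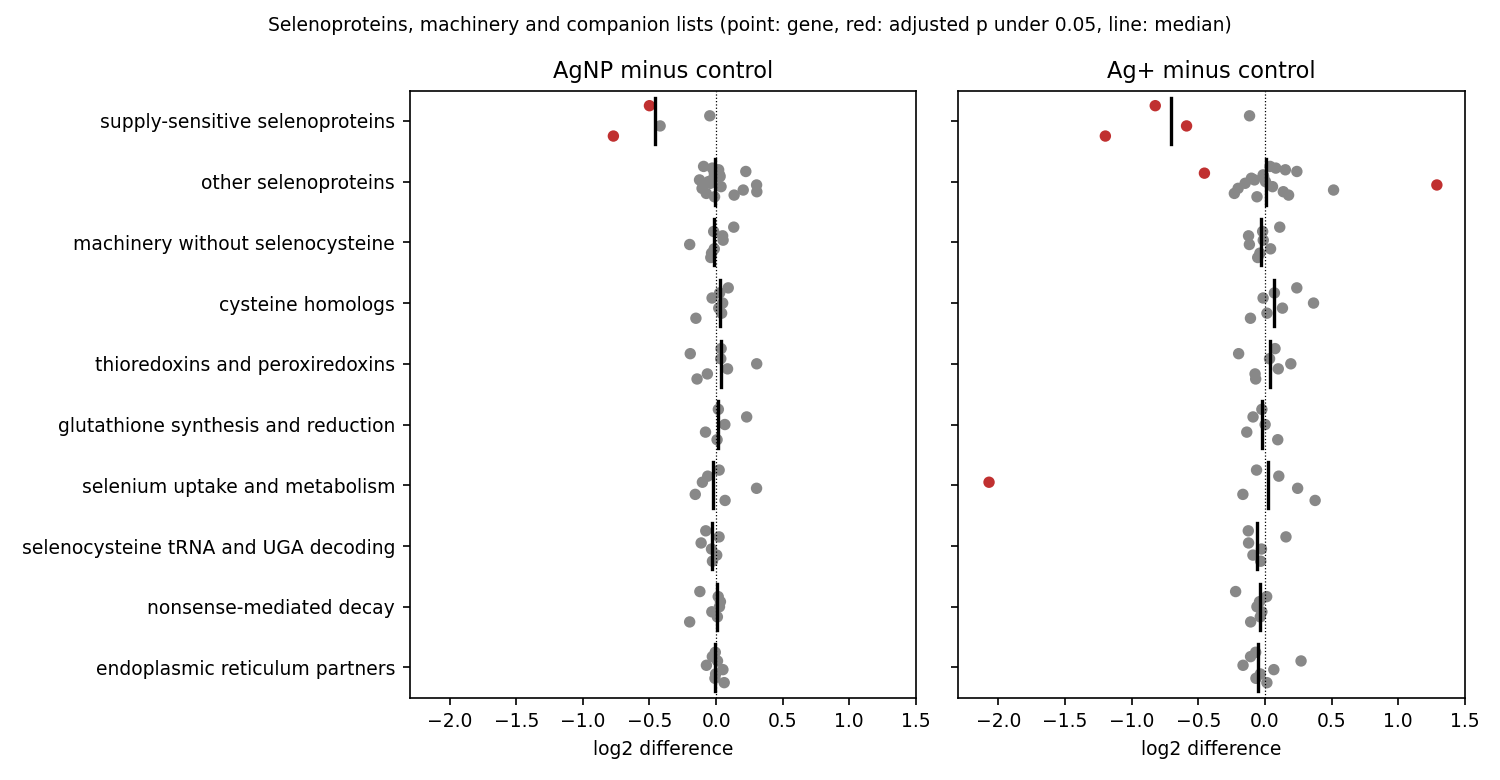
Log2 differences (points, 1 per gene) for AgNP minus control and Ag+ minus control in the selenoproteins known to be sensitive to selenium supply, the other selenoproteins, the machinery without selenocysteine and 7 lists of companion genes; red marks an adjusted p under 0.05 and the line is the list's median. The medians of the first list lie at -0.46 and -0.71, and the point at -2.07 is Lrp2.

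The calls with AgNPs lay near the threshold. Gpx1 was called in 2 of 9 fits that each left out 1 array (without control array 1, adjusted p = 0.0291, or Ag+ array 2, adjusted p = 0.0442) and lost in the other 7, at differences of -0.52 to -0.48 and adjusted p of 0.0673 to 0.143. Selenow was called in 1 of 9 (without control array 3, adjusted p = 0.0489) and lost in the other 8, at adjusted p of 0.0702 to 0.231. Their differences stayed between -0.53 and -0.48 for Gpx1 and between -0.87 and -0.71 for Selenow.

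With Ag+, Gpx1, Selenow and Selenop were called in all 9 such fits. Gpx3 was lost without control array 2 (adjusted p = 0.0519), and Selenoh without Ag+ array 3 (adjusted p = 0.0564) or control array 2 (adjusted p = 0.0535). Between AgNP and Ag+ EBs, Gpx1 and Gpx3 were lost in all 9 fits, at adjusted p up to 0.207 and 0.146. Selenop was lost in 7 of 9, at adjusted p up to 0.201, and was called only without Ag+ array 1 (adjusted p = 0.0463) or control array 1 (adjusted p = 0.046). Lrp2 was called with Ag+ in all 9 fits, while its difference between AgNP and Ag+ EBs was called in 3 of 9, without Ag+ array 1, control array 1 or control array 3.

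**Figure D4:**
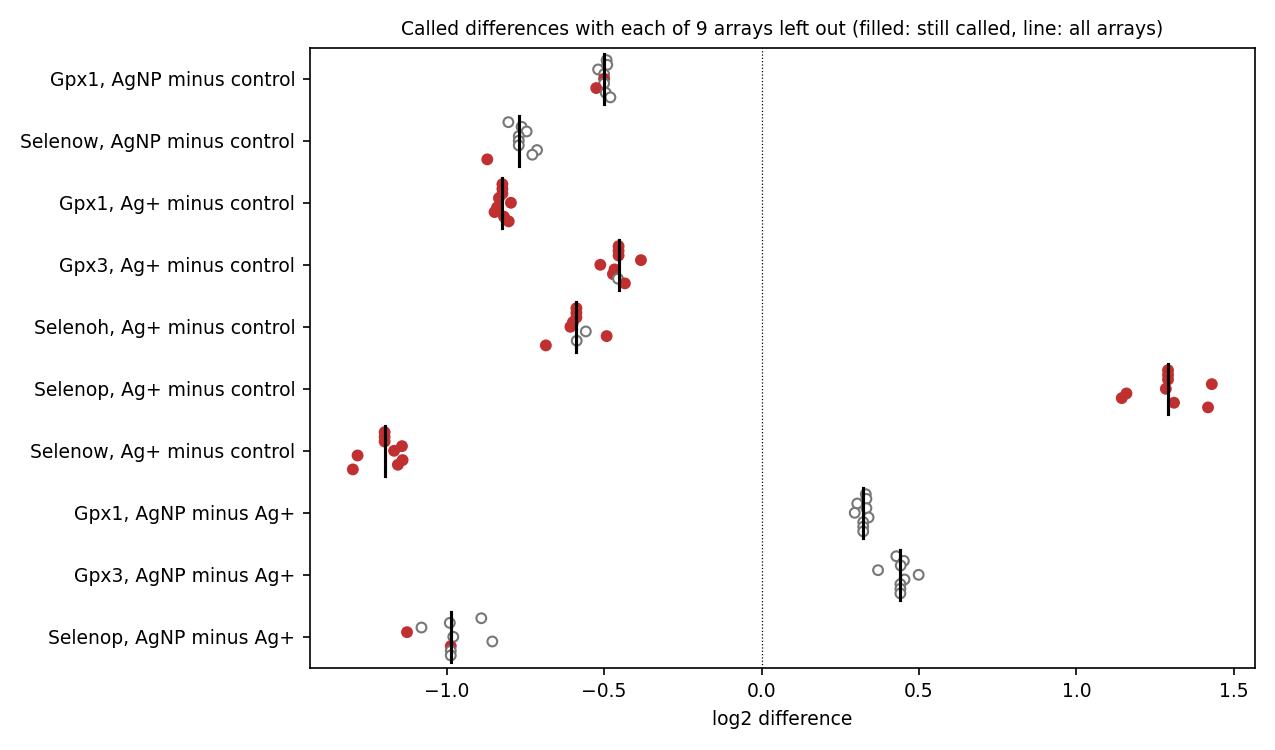
Log2 difference of each call (rows) with each of the 9 arrays left out in turn (points), filled where the adjusted p stayed under 0.05; the line is the difference over all arrays. All 9 points are filled for Gpx1, Selenow and Selenop in Ag+ minus control, and 0 for Gpx1 and Gpx3 in AgNP minus Ag+.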

How the data were processed

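RNA of EBs was measured on Affymetrix Mouse Gene 2.0 ST arrays in 3 AgNP, 3 Ag+ and 3 control replicates, grouped by the sample labels. The authors summarised probe sets with RMA in Expression Console 1.3 (background correction, quantile normalization, median polish), which pulls the arrays to a common distribution, and the deposited log2 values were used as they stand. Arrays at a lower Ag+ dose were not analysed here.

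Of 41345 probe sets, 23521 name 1 gene in the platform annotation, 1820 name several and 16004 are unnamed here. One limma 3.58.1 fit (R 4.3.3, data.table, version 1.17.8) with 3 group means gave 3 two-sided contrasts, Benjamini-Hochberg adjusted over the 25341 named probe sets, with a threshold of 0.05 and no filter on signal. It was tested on simulated data. The number of arrays limits the precision. The members and lists were chosen with earlier results of these data known. Array values are given for called genes and, within the family, for those with an unadjusted p under 0.01 and the gene of smallest p in each class. Promoter windows came from RefSeq (GRCm38.p6). Alternatives changed the arrays in the fit, the variance model, the replicate block, weights, the probe sets tested, centring, the test (one-way ANOVA), the call (fold of at least 1.5 and an unadjusted p under 0.05) and the probe set per gene. The ANOVA alternative tested each contrast by t with the unmoderated variance pooled over the 3 groups, and not by an F test. Leaving out AgNP array 1 and control array 3 together was an alternative chosen after seeing the data.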

Additional observations from a re-analysis of the deposited data

Results flagged for a closer look

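Gpx1, Gpx3 and Selenop differed between the exposures at equal silver mass, tested as AgNP minus Ag+ in limma, where the control arrays enter through the shared estimate of the spread. At this mass the paper reports more cell death in EBs with Ag+ than with AgNPs. The part of cell death in these differences was not tested. Gpx1 was higher with AgNPs than with Ag+ by a log2 difference of 0.32 (adjusted p = 0.0493), and all 3 AgNP arrays lay above all 3 Ag+ arrays. Gpx3 was higher with AgNPs by 0.44 (adjusted p = 0.0389), also on all 3 arrays. Selenop differed by -0.99 (adjusted p = 0.0486), with all 3 AgNP arrays under all 3 Ag+ arrays. With 1 array left out, the adjusted p reached 0.207 for Gpx1, 0.146 for Gpx3 and 0.201 for Selenop. All 3 calls were lost with only the AgNP and Ag+ arrays in the fit, those of Gpx1 and Gpx3 without any single control array, and that of Selenop without control array 2 or 3.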

How the results depend on the processing

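No called difference changed sign under any alternative, and no further gene of the family was called under one. The count with AgNPs (2 of 31) fell to 0 with only the 2 groups compared, all probe sets adjusted together, the one-way ANOVA or the added pair of arrays left out, and to 1 with arrays centred on the median or the fold threshold. Leaving out 1 array gave 0 to 1. The count with Ag+ (5) fell to 3 with only the 2 groups compared and with the ANOVA, and was 3 to 5 with 1 array left out; Selenop was lost under the ANOVA alone (adjusted p = 0.0608). The count between AgNP and Ag+ EBs (3) fell to 0 with only the 2 groups compared, all probe sets, centring, the ANOVA or the added pair, to 1 with the fold threshold, and to 0 to 1 with 1 array left out. The added pair also cost Gpx3 its call with Ag+. Centring moved the 3 differences by 0.03, 0.05 and -0.02.

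The sources give no shared culture or day for a replicate number, and not every pair of arrays with the same number correlated over 0.1 in its deviations from the group means, so no pairing was assumed. Same-number pairs lay at -0.056 to 0.233, 4 of 9 over 0.1, against -0.273 to 0.191, 2 of 18 over 0.1, for pairs of different number. The 3 pairs of number 1 were at 0.126, 0.174 and 0.233, but not every array correlated best with one of its own number. With the number as a replicate block the counts were 1 with AgNPs (Gpx1), 5 with Ag+ and 1 between AgNP and Ag+ EBs (Selenop). The causes of these changes were not tested. Low signals limit Gpx2 and Dio2, whose means lie under the 25th percentile of named probe sets (3.719).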

Other observations

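Gpx4 and Selenom each read the same value on all 3 control arrays, at 7.31 and 5.96. Equal values on the 3 arrays of a group occurred in 1.9% of named probe sets with AgNPs, 1.96% with Ag+ and 1.7% in controls, and in 0, 0 and 2 of the 31 genes.

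In each of the 3 groups the replicate numbered 1 had the lowest Selenop signal and the one numbered 3 the highest, while for Lrp2 number 1 was highest and number 3 lowest. Among the cell type markers, Nanog, Eomes and Cubn kept the order of Lrp2 in every group, while others such as Sox2 and Ttr did not. The pattern was noticed after the values were seen and was not tested. With the replicate number as a block, the AgNP minus Ag+ difference had an adjusted p of 0.00129 for Selenop and 0.000342 for Lrp2 in limma. Its SE was 0.0616 against 0.17 without the block for Selenop and 0.0961 against 0.303 for Lrp2. These 2 genes were named for following the replicate number, so the block had to shrink their SE and these values are no support for a pairing. In differences from control, the block raised the SE of Gpx1 from 0.0562 to 0.0578, of Selenow from 0.103 to 0.113 and of Gpx3 from 0.0714 to 0.0726. That of Selenoh fell from 0.0919 to 0.076.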
